A study of Drosophila melanogaster with 2 samples.

Results

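The 46 genes described here are Hox genes and other homeobox genes of Drosophila melanogaster grouped apart from the NK homeobox genes, taken by name from a fixed list and all found among the 13945 protein-coding genes on the chromosome arms. Of the 46, 8 are Hox genes and 38 are not. Binding was measured by chromatin immunoprecipitation and sequencing of whole embryos of both sexes, 0 to 24 h old, of strain Hmx-MiMIC-GFP, in which an eGFP exon within an intron of Hmx makes a Hmx-eGFP fusion protein. The pull-down used an antibody against GFP per the sample description, while the antibody field names Hmx. Both samples, biological replicates 2 and 3, carried the same insertion in 1 line and formed 1 group, and no untagged or second group was analysed here. Each value is from whole embryos of mixed stages, so binding in a small share of cells and weak binding in many cells cannot be told apart.

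The authors deposited lists of regions, each with a summit and a signal value on a scale that the sources do not give, and no read counts, so the depth is unknown. Each replicate and the pool of both had a list of 30000 regions, and these lists were described as peaks together with background. The set passing the irreproducible discovery rate (IDR) procedure held 1607 regions, which were the 1607 strongest of the pooled list, down to a signal of 78.4. Regions below that rank may be background. In what follows a gene has a summit when one falls in its body or in the 1 kb upstream, and rank 1 is the strongest region of a list. Signal scales differ between lists, so replicates are compared by rank.

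Homeobox genes encode transcription factors that bind DNA through a homeodomain, many of them at sites with a TAAT core. The Hox genes lie in the Antennapedia and bithorax complexes and set segment identity along the head to tail axis, together with the cofactors encoded by exd and hth. Other families of the group pattern the early egg and segments, the eye, the limbs and the nervous system. Many of these loci have long introns and large non-coding intervals with enhancers, and many are silenced by Polycomb group proteins in the cells where they are off. Hmx is itself a homeodomain protein of the developing nervous system.

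The windows below show what the strongest regions in Hox loci and at ct look like, beside the strongest region within a Hox gene that was not in the IDR set, at pb, and that of hth. Each runs 5′ to 3′ on the plus strand of dm6 over the summit and 50 bases on either side, read from the RefSeq copy of the assembly, with TAAT or its reverse complement ATTA in capitals, overlapping matches included. The windows are an intron of Antp at chr3R:6912414-6912514 (pooled rank 842), sequence between Ubx and abd-A at chr3R:16798866-16798966 (rank 838), an intron of ct at chrX:7618365-7618465 (rank 771), an intron of pb at chr3R:6723918-6724018 (rank 1878) and an intron of hth at chr3R:10624631-10624731 (rank 2008).
Antp: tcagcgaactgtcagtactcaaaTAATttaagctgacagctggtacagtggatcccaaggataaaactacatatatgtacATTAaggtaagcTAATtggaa
Ubx to abd-A: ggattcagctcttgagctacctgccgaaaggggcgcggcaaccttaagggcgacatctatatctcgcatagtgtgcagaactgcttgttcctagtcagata
ct: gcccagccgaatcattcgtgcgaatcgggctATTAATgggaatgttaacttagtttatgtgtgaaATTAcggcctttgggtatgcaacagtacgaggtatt
pb: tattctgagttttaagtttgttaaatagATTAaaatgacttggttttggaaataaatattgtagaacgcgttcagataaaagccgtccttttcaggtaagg
hth: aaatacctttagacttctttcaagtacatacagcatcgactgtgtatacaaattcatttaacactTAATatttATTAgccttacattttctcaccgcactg
The Antp and ct windows each hold 3 matches, hth 2, pb 1, and the window between Ubx and abd-A 0. Such a match is common, since 84.4% of the 1595 IDR windows on the arms and 79.6% of the 28393 weaker pooled windows hold at least 1, so it sets none of these sites apart.

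Few of the homeobox genes had a region in the IDR set. An IDR summit was present at 3 of 46 members, Antp, ct and otp, or 6.52%, while 12.2% of all protein-coding genes had one. The members are long, with a median locus of 13.9 kb against 2.17 kb for all protein-coding genes, and long loci have more room for summits. For each member, the 100 protein-coding genes nearest in length and outside the list were therefore taken. On average 21.4% of those had an IDR summit, which corresponds to 9.86 genes of 46. No test of this difference was made, because the list was chosen with results of these data known.

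Split by length, the members had a lower share than other genes in each class below 50 kb. Of the 15 members up to 5 kb, 0 had an IDR summit (95% Wilson interval up to 20.4%), against 8.98% of other protein-coding genes of that length. Of the 15 members of 5 to 20 kb 1 had one, otp, against 19.7% of the others, and of the 12 members of 20 to 50 kb 0 had one (interval up to 24.2%), against 25.6%. Of the 4 members over 50 kb, Antp and ct had one, and Ubx and hth did not, against 32.0% of other genes of that length. The intervals cover counting error only and take genes as independent, although members such as pb and Scr share a complex. For every class but that of 20 to 50 kb the interval of the members includes the share of the other genes. This is no test of any class, since the list was chosen with results known.

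**Figure D1:**
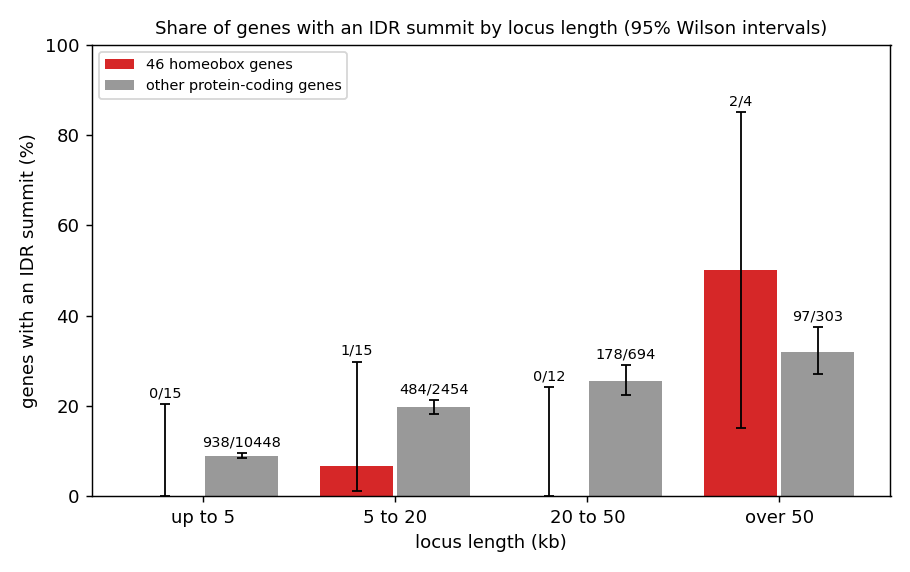
Share of genes with an IDR summit in the gene body or 1 kb upstream (y axis, percent) by locus length in kb (x axis), for the 46 homeobox genes and for other protein-coding genes. Bars carry the counts, and error bars are 95% Wilson intervals; the red bars are at 0 in the classes up to 5 kb and 20 to 50 kb and stand above the grey bar only over 50 kb, where 2 of 4 members had a summit.

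Ranks over the whole pooled list use the weaker regions as well. The best pooled region of a member was outranked by a median of 57.5% of its 100 similar-length genes, where 50% would be the middle. Of the 46 members 28 stood weaker than the middle of their comparison genes, 17 stronger and 1 at the middle. The 8 Hox genes had a median of 48.5% and the 38 others one of 62.5%. In the replicates the Hox median was 51.5% in replicate 2 and 56.5% in replicate 3, on the other side of the middle, and that of the other members was 69.0% and 63.5%. Without regard to length the order turned, since the median member was outranked by only 34.8% of all protein-coding genes outside the list and the median Hox gene by 22.1%. The difference between Hox and other members was not tested.

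**Figure D2:**
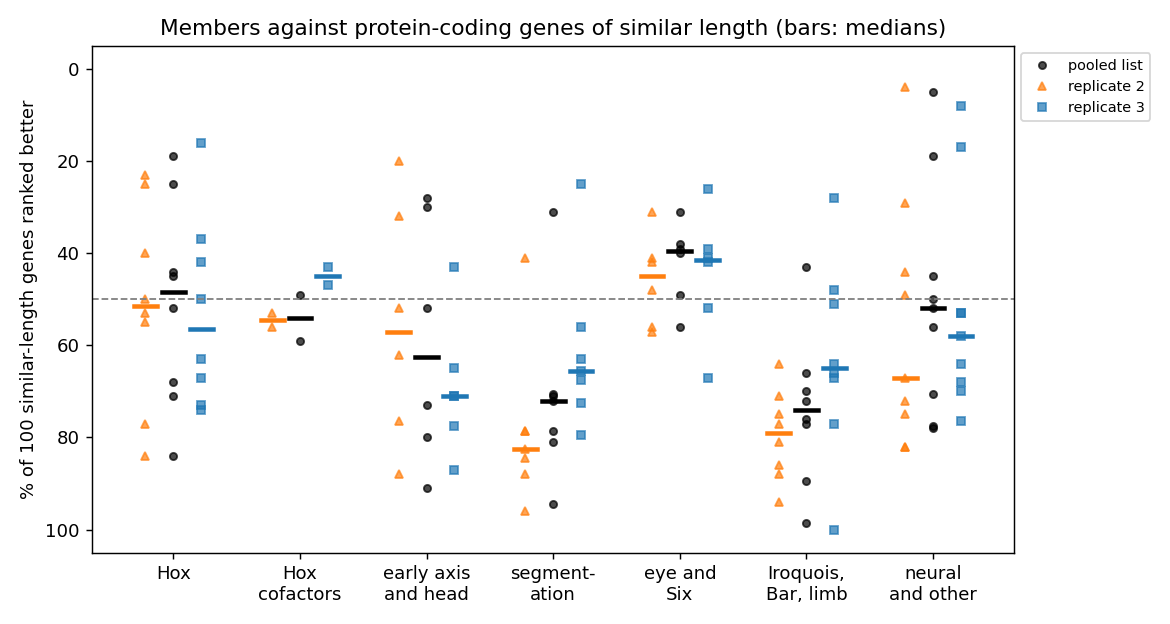
Percent of the 100 protein-coding genes nearest in length whose best region ranked better than the member's (y axis, strongest at the top), by role group (x axis), in the pooled list and in each replicate. Points are genes, short bars are group medians and the dashed line is 50%; the eye group has medians between 39.5% and 45.0%, above the line in all 3 lists, and the early axis, segmentation, neural and Iroquois, Bar and limb groups have medians below it in all 3. Hox genes and cofactors have medians on both sides.

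Among the Hox genes, Antp (FBgn0260642, 3R 6896253 to 6999228), which specifies thoracic segments, was the only one with an IDR summit. Its region at 6912246 to 6912681 had a pooled signal of 108.7 and rank 842, with ranks of 1187 in replicate 2 (signal 50.5) and 582 in replicate 3 (60.7). By these ranks both replicates placed it inside their 1607 strongest regions, and the replicate summits lay within 5 bp of the pooled one. The summit was intronic, 20376 bp downstream of the nearest start of Antp and 7782 bp from the start of lncRNA:CR43252, and also lay within the overlapping gene CG46458. Antp held 37 pooled regions in its 103 kb, against a median of 22.5 for genes of similar length. Of those genes, which ran from 78.1 to 135 kb, 38% had an IDR summit and 19% had a better best rank.

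The other 7 Hox genes had pooled regions below the IDR set. The best region of pb, a gene of mouthpart identity, was intronic with a signal of 72.3 and rank 1878 (2120 in replicate 2 and 4927 in replicate 3). It was the closest to the set among all members without an IDR summit, and hth, at 2008, came next. Abd-B, the gene of the posterior abdomen, ranked 2753 in the pooled list, 2199 in replicate 2 and 2793 in replicate 3. Its best pooled region lay in a 5′ UTR, 383 bp downstream of a start, where replicate 2 had rank 2199 and replicate 3 only 13308, so the 2793 of replicate 3 came from another place in the gene.

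The abdominal gene abd-A ranked 3644 (6293 and 3668 in replicates 2 and 3), and Ubx, which acts in the third thoracic and first abdominal segments, ranked 4145 (4093 and 1845). The 1845 of replicate 3 was at the best pooled region of Ubx, in its 3′ UTR, and replicate 2 had 7551 there. Lower pooled ranks were found at Scr, lab and Dfd. Scr, which acts in the labial and first thoracic segments, ranked 7344 (9914 and 4791), and the head genes lab and Dfd ranked 6218 (4594 and 8813) and 22912 (23720 and 16423). The best pooled region of Scr lay in its 3′ UTR, 151 bp from the start of tRNA:Lys-TTT-2-4. Replicate 3 had rank 9668 there, so its 4791 came from another place in the gene. Dfd had 1 pooled region in 10.6 kb, at 329 bp downstream of its start, and 84% of genes of its length had a better one. In order of pooled rank the Hox genes ran Antp, pb, Abd-B, abd-A, Ubx, lab, Scr and Dfd. The replicate ranks of pb and Abd-B, of abd-A and Ubx, and of lab and Scr overlapped, so the 2 replicates do not settle the order of these neighbours. These are best ranks anywhere in a gene. At the best pooled regions alone, the 9914 and 9668 of Scr did not overlap the 4594 and 8813 of lab. Antp was first and Dfd last in both replicate lists as well, and pb was the second in replicate 2 and the sixth in replicate 3.

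**Figure D3:**
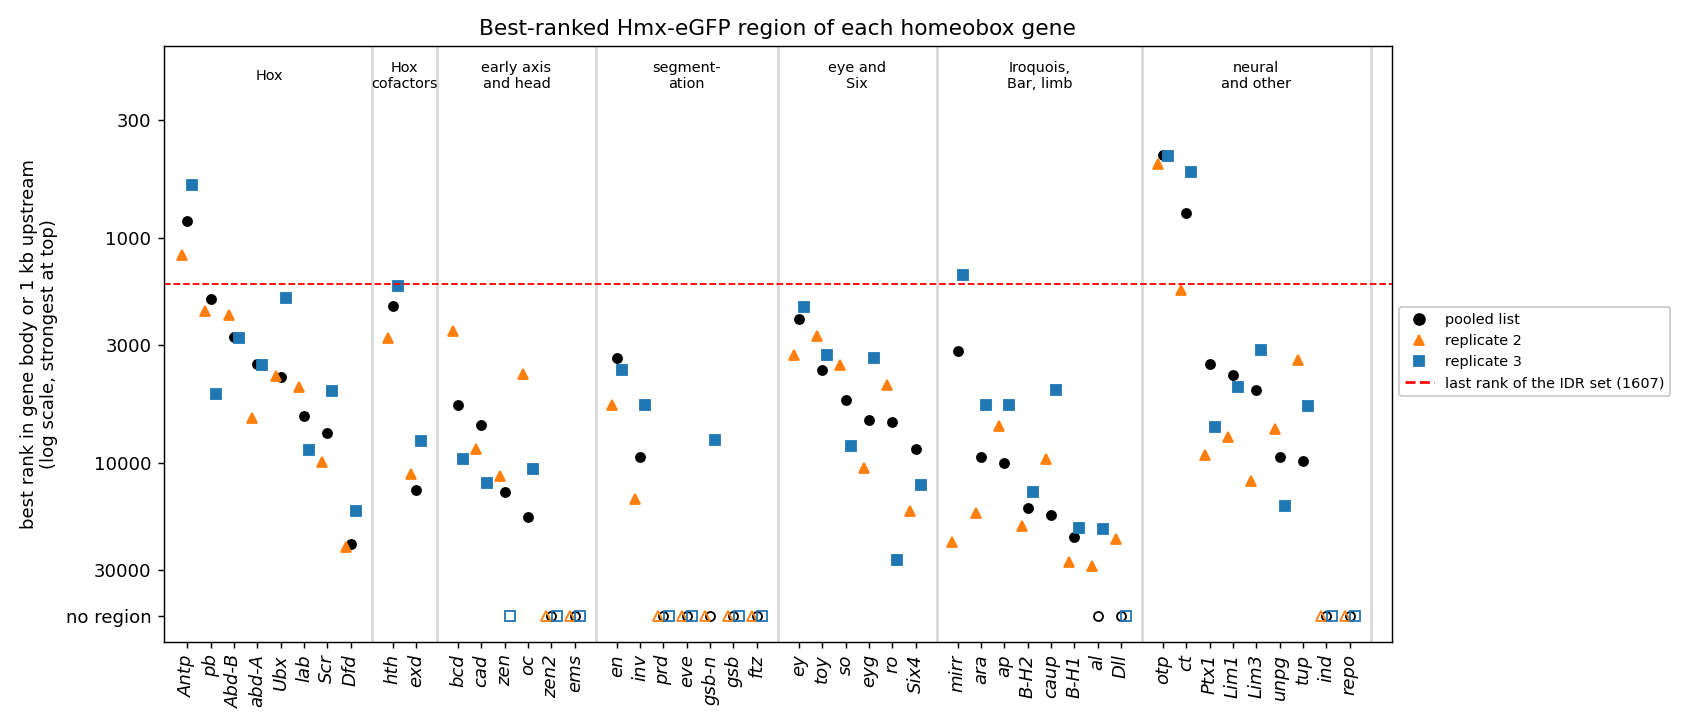
Best rank of any region in the gene body or 1 kb upstream (y axis, log scale, strongest at the top) for each of the 46 genes (x axis, by role group), in the pooled list and in replicates 2 and 3. Open symbols mark genes with no region in a list and the dashed line is rank 1607; otp and Antp lie above it in all 3 lists, ct in the pooled list and replicate 3, and mirr in replicate 3 only.

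The Hox complexes held 1 IDR summit each, fewer per length than their arm, and more pooled summits per length than the arm. In the Hox genes themselves the density was close to that of genes of similar length. It was 3.01 pooled summits per 10 kb over all their windows together, with a median of 2.85 per gene. The value for genes of similar length, 2.85, is a mean over the Hox genes, so the measures differ. The Antennapedia complex, from lab to Antp, spanned 337.8 kb and held 103 pooled summits, or 30.5 per 100 kb against 21.8 over arm 3R, of which 58 lay in the bodies of its 9 member genes. It held 1 IDR summit, that of Antp, or 0.296 per 100 kb against 1.11 over the arm. The bithorax complex, from Ubx to Abd-B, spanned 315.6 kb and held 95 pooled summits, or 30.1 per 100 kb, and 1 IDR summit, or 0.317 per 100 kb. These rates are descriptions of single loci and were not tested.

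The IDR summit of the bithorax complex lay in no gene body. Its region, 3R 16798698 to 16799133, was intergenic, 8.30 kb beyond the 3′ end of abd-A on the side of Ubx and 1684 bp from the start of lncRNA:CR45750. It had a pooled signal of 108.9 and rank 838, with ranks of 1073 in replicate 2 (signal 53.4) and 692 in replicate 3 (56.2), so both replicates had it among their 1607 strongest. A second intergenic region on the side of Ubx, at 16794221 to 16794656, had a signal of 73.3 and rank 1829, just below the set. Farther IDR summits within 20 kb of the complex were at the starts of other genes, CG18622 (rank 360, 14.5 kb from Abd-B) and CG10324 (rank 884, 9.49 kb from Ubx). That at CG10324 had rank 1151 in replicate 2 and no summit within 250 bp in replicate 3.

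**Figure D4:**
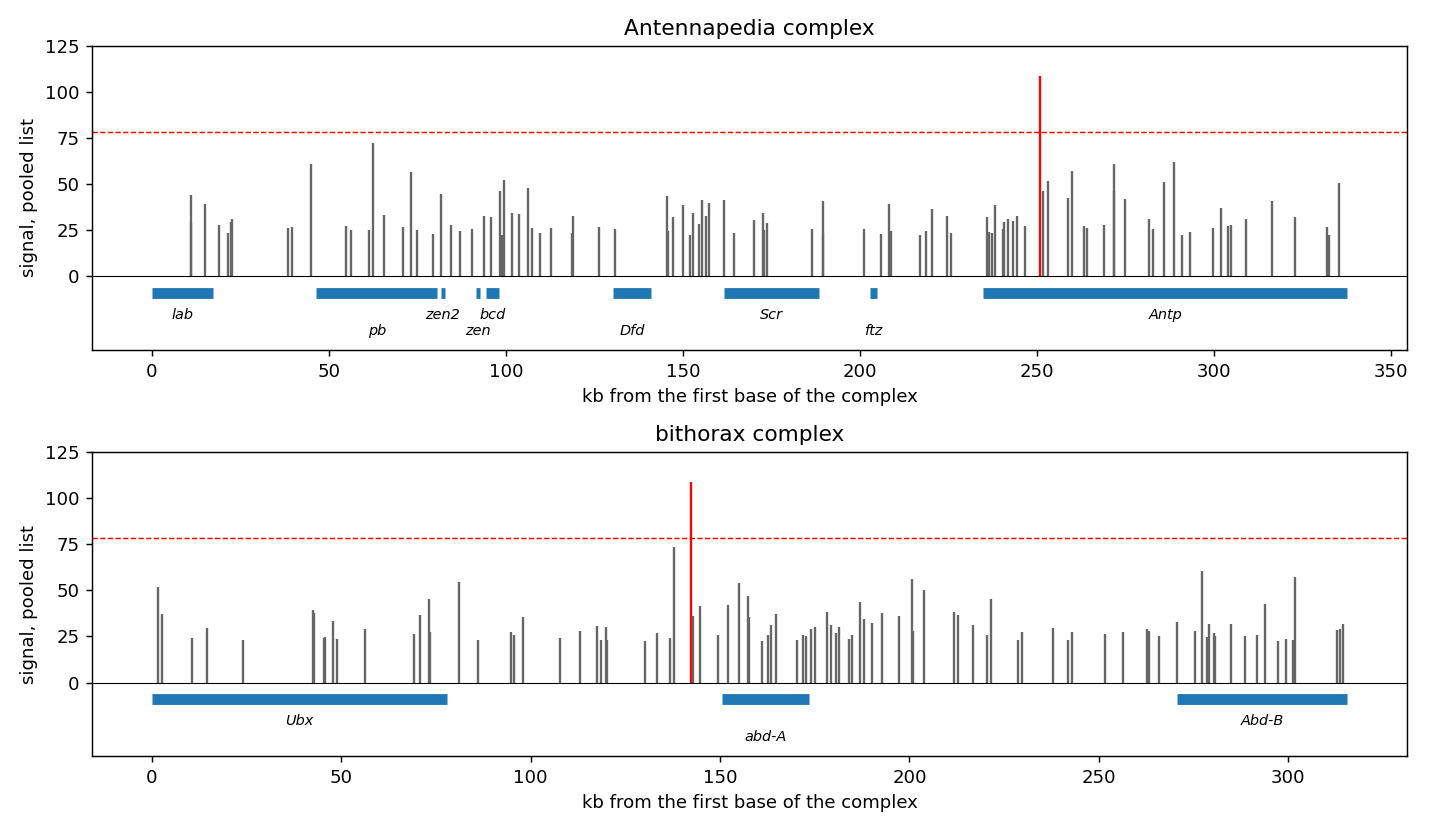
Signal of each region of the pooled list (y axis, the authors' scale) along the Antennapedia and bithorax complexes (x axis, kb from the first base of the complex), with member gene bodies as blue bars. The dashed line is the lowest IDR signal, 78.4, and red lines are IDR regions; each complex has 1 red line, in the body of Antp and between Ubx and abd-A, among 103 and 95 regions in all.

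The smaller gene clusters on the large arms gave no IDR summit. The Iroquois complex of ara, caup and mirr (129.6 kb) held 26 pooled summits with a best rank of 3181, or 20.1 per 100 kb against 23.7 on its arm, and the span of B-H1 and B-H2 (88.7 kb) held 25 with a best rank of 3860, at an intergenic site, or 28.2 per 100 kb against 19.7. The span of en and inv held 10, or 18.6 per 100 kb against 19.3, and that of gsb and gsb-n held 1, at rank 22507, or 4.12 against 19.3. The density was thus below the arm's in 3 of these 4 clusters. The span from ey to toy on chromosome 4 (310.2 kb), which holds many other genes, had 1 IDR summit, in an intron of Sox102F, 86.5 kb from ey. Its rates were near those of chromosome 4, with 0.322 IDR summits per 100 kb against 0.445 and 60.0 pooled summits against 56.4. The other 6 spans held 2 IDR summits in 949.7 kb, or 0.211 per 100 kb against 1.20 over the arms other than 4, and 27.4 pooled summits per 100 kb against 22.1. All 7 spans held 3 IDR summits. With the 1607 strongest regions of replicate 2 in place of the IDR set the count was 4, and with those of replicate 3 it was 5.

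The genes of the Hox cofactors differed in size and had no IDR summit. The gene hth, which encodes a homeodomain partner needed for nuclear entry of the exd product, has a locus of 132 kb and held 57 pooled regions, against a median of 24 for genes of similar length. Its best rank was 2008 in the pooled list (signal 69.8), 2777 in replicate 2 and 1638 in replicate 3, just below the strongest 1607. At the place of the best pooled region replicate 2 had rank 4962, so its 2777 came from another place in the gene. The similar-length genes ran from 88.8 to 179 kb, so the match in length was loose. Of them 42% had an IDR summit and 49% ranked better than hth. The gene exd ranked 13202 (11179 and 7960), at 15 bp downstream of its start.

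Many early axis and segmentation genes had no region, and most of them are short. Of the segmentation genes, 5 of 7 had no pooled region, where 2.41 would be the count from the average share of 34.4% of genes of their length. They were the pair-rule genes ftz, eve and prd, the segment polarity gene gsb and its paralogue gsb-n. In the replicate lists gsb-n alone had any, at rank 7921 in replicate 3. The 2 others were the segment polarity gene en, with its best pooled region 574 bp upstream of its start at rank 3422 (5544 and 3873), and its paralogue inv, at 9410 (14506 and 5551). Relative to genes of similar length en stood on the strong side, with 31% ranked better, as did bcd with 30%, while inv had 72%. Both replicates also had en and bcd on the strong side. For zen the share was 28% in the pooled list and 32% in replicate 2, but 71% in replicate 3, where it had no region. Of the genes of its length 60% had no pooled region, so a weak region sufficed for the strong side. The anterior morphogen gene bcd ranked 5527, 169 bp upstream of its start, with 2582 in replicate 2 and 9573 in replicate 3. At the place of the best pooled region replicate 3 had rank 19904, so its 9573 came from another place in the gene. The posterior gene cad ranked 6772 (8708 and 12347), the dorsal gene zen 13442 (11415 and no region), and the head gap gene oc 17341 (4016 and 10686). No region was found in any list at zen2 or at the head gap gene ems, so that 2 of 6 early axis genes had no pooled region, against 2.16 from genes of their length.

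Eye genes had regions throughout, none in the IDR set. The Pax6 genes ey and toy, which start eye development, ranked 2296 (3303 and 2024) and 3878 (2740 and 3305). They lie on chromosome 4, where the pooled list had 5.64 regions per 10 kb against 1.93 to 2.57 on the other arms, and they themselves had 4.90 and 5.73. The best region of ey lay at -940 bp from its own start and nearer, at 694 bp, to that of the neighbouring gene myo. The gene so, which acts with ey in the eye, ranked 5232 (3687 and 8378), 336 bp upstream of its start. The Pax gene eyg ranked 6430 (10536 and 3436), the photoreceptor gene ro 6556 (4514 and 27145) and Six4 8708 (16433 and 12496). In this group 5 of 6 genes ranked better than the middle of their similar-length genes in the pooled list, with a median of 39.5% ranked better. In each replicate 4 of 6 did, with medians of 45.0% in replicate 2 and 41.5% in replicate 3.

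Genes of the Iroquois and Bar families and of limb development ranked lower than most genes of their length. In the pooled list the median share of similar-length genes ranked better was 74.0%, and 7 of 8 ranked below the middle. The median was 79.0% in replicate 2, with 8 of 8 below the middle, and 65.0% in replicate 3, with 6 of 8. The exception in the pooled list was mirr, with 43% ranked better, but 88% in replicate 2 and 28% in replicate 3. In replicate 3 caup was on the strong side too, with 48%. The best pooled region of mirr, an Iroquois gene of the dorsal eye and follicle cells, lay 679 bp downstream of its start and had a signal of 57.5 and rank 3181. In replicate 3 it ranked 1456, among the 1607 strongest, with a signal of 40.9, whereas in replicate 2 the region at that place ranked 26382 and the best of the gene 22616. Its Iroquois relatives ara and caup ranked 9392 (16706 and 5545) and 17034 (9640 and 4767). The wing selector gene ap ranked 10053 (6865 and 5508), B-H2 15850 (19202 and 13449) and B-H1 21343 (27523 and 19517). The limb gene Dll had no pooled region in 20.85 kb, where 3% of similar-length genes had none, and al had none in 9.33 kb, where 21% had none. In the replicates Dll had 1 region, at rank 21786 of replicate 2, and al ranked 28797 and 19630.

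The strongest region in any member was at otp (FBgn0015524, 2R 20883625 to 20903414), a paired-type gene expressed in brain and hindgut. Its IDR region, 2R 20884352 to 20884787, had a pooled signal of 149.2 and rank 428, with 468 in replicate 2 (signal 79.2) and 430 in replicate 3 (70.3). Both replicates thus placed it close to the pooled rank. The summit lay in a coding exon, 13014 bp downstream of the nearest otp start and 4640 bp from the start of Cib2. Only 5% of similar-length genes had a better best region. The sense organ gene ct (FBgn0004198, X 7608428 to 7678859) had its IDR region in an intron at 7618197 to 7618632, 9267 bp downstream of its start, with a signal of 113.9 and rank 771. Replicate 3 had it at 510 (64.9) and replicate 2 at 1706 (42.5), just below its 1607 strongest.

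The remaining neural genes had weaker regions or none. The paired-type gene Ptx1 ranked 3632 (9264 and 6959). The LIM homeobox genes of neuron identity, Lim1, Lim3 and tup, ranked 4069 (7698 and 4582), 4753 (12025 and 3146) and 9848 (3504 and 5615), and unpg, a gene of the developing brain, ranked 9439 (7084 and 15518). The best tup summit lay in its 3′ UTR, 448 bp from the starts of CG10602 and mRpL13. The column gene ind of the neuroectoderm and the glial gene repo had no region in any list. Altogether 11 of 46 members, or 23.9%, had no pooled region, against 44.1% of all protein-coding genes and an average of 20% of those of similar length.

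Both replicates had otp and Antp among their strongest regions, and ranked some of the other members far apart. Among the 1607 strongest regions of each, replicate 2 had a summit at 2 members, Antp and otp, with a background of 12.6% of protein-coding genes, and replicate 3 at 4, Antp, otp, ct and mirr, with a background of 11.8%. Both had one at 2 members, or 4.35%, against 8.68% of all genes and 16.4% on average of genes of similar length. A summit in both replicate lists was present at 35 members, and the best ranks of 7 of them differed over 3-fold between the replicates. The Spearman correlation of best ranks was 0.496 over these 35 members and 0.711 over 6412 protein-coding genes, both as descriptions, since the genes share libraries and differ in length. The best pooled region had a summit within 250 bp in both replicates at 27 of 35 members, and was the best region of the gene in both at 13. No share over other genes is given here for these counts or for the 7 above, so they do not set the members apart.

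**Figure D5:**
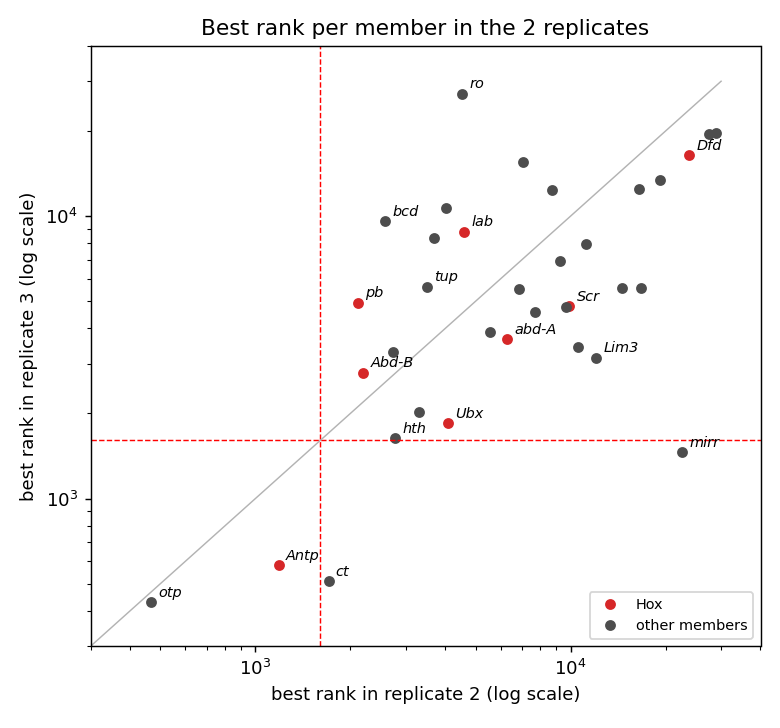
Best rank in replicate 2 (x axis, log scale) against replicate 3 (y axis, log scale) for the 35 members with a region in both lists. Dashed lines are rank 1607 and the grey line is equal rank; otp and Antp lie inside both dashed lines, ct and mirr only inside that of replicate 3, and mirr and ro lie far from the line of equal rank.

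Fewer regions of the homeobox genes lay near starts than in genes of similar length. No member had an IDR summit within 500 bp of one of its own starts (0 of 46), a count added after the data were seen, where 9.04% of all protein-coding genes and on average 13% of those of similar length had one. Of the 302 pooled summits in the members, 247 or 81.8% were in introns and 26 or 8.61% within 500 bp of any start. Over all 29988 pooled summits on the arms these shares were 52.4% and 23.3%. In genes of similar length, weighted by the summits of each member, they were 77.9% and 17.6%, so the intron share was close to that of other long genes. The best pooled region was within 500 bp of an own start at 5 of 35 members, or 14.3%, which were so, bcd, Dfd, Abd-B and exd. The same share averaged 35% in genes of similar length and was 53.1% in all protein-coding genes with a pooled region. These differences were not tested. For the 43 members without an IDR summit, the nearest one lay a median of 41.8 kb outside the gene and its 1 kb upstream. Members of a complex share such summits, so these were 32 distinct ones. Of the 32, 22 or 68.8% were within 500 bp of a start, near the 60.1% of all IDR summits on the arms. The nearest IDR summit came within 5 kb at 5 members, namely ro (0.946 kb), tup (1.72 kb), repo (2.65 kb), Six4 (3.93 kb) and eyg (4.98 kb). For ro, tup, repo and Six4 that summit lay at the start of another gene. These were ms(3)K81 (27 bp), CG10602 (113 bp), CG7156 (97 bp) and asRNA:CR46484 (256 bp). Such distances are not given here for other genes, so these counts do not set the members apart.

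The 4 IDR regions at Antp, ct, otp and between Ubx and abd-A had more G and C than the median of the IDR set. The median G+C content of 101-bp windows was 29.7% over the 1595 IDR summits on the arms, with quartiles of 26.7 and 34.7%, and it was also 29.7% over the 637 of them more than 500 bp from any start. The window of otp had 57.4%, a value that 7 of the 1595 reached, and the one between Ubx and abd-A 51.5%, which 22 reached. That of ct had 43.6% (109 reached it) and that of Antp 36.6% (322). The best regions of all 35 members with a pooled region had a median of 30.7%. Most of these windows lie outside the IDR set. TAATTA was in 5 of them, or 14.3%, against 11.2% of IDR windows and 10.8% of the weaker pooled windows, both strands searched. TAATTG was in 7, or 20%, against 12.2% and 12.9%. TAAGTG was in 3, or 8.57%, against 5.45% and 6.07%, and CAAGTG in 3, or 8.57%, against 4.01% and 5.61%. These are counts of letters in a few windows, compared without a test.

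Further homeobox genes outside the list also gave a low count. Of 33 such genes taken by name, among them LIM, POU, zinc-finger homeobox and further paired-type genes, 1 had an IDR summit, or 3.03%, against the 12.2% of all protein-coding genes. That gene was PHDP, a paired-type gene, with a summit at -316 bp from its start, a signal of 89.3 and rank 1230 (985 in replicate 2 and 1110 in replicate 3). With the strongest regions of replicate 3 in place of the IDR set the count was 2.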

How the data were processed

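Region lists on dm6 were used as the authors deposited them, in narrowPeak form. Per the file records, regions were called against a control alignment for each replicate and for both pooled, and the IDR set was derived from these 3 lists. No source used here names the aligner, the caller or the threshold of the IDR step. The offset in column 10, another deposited value, gave the summit. Column 7 is the signal that the authors deposited, used for ranks within a list. The authors deposited q on a −log10 scale in column 9, which served for an alternative threshold of 5%. Lists on dm3 were not used here. Genes came from Ensembl release 115 (BDGP6.54, the dm6 assembly), on arms 2L, 2R, 3L, 3R, 4 and X; mitochondrial regions kept their ranks but met no gene. Summits were placed with Python 3.11.15 and pandas 2.3.3, and the assignment was tested on simulated summits. Similar-length genes were the 100 non-member protein-coding genes nearest in log locus length. Depth is unknown, so no interval rests on it. The members, lists and comparisons were chosen with earlier results of these data known, so no list was tested. Hox genes, genes in the strongest regions, and the best and worst ranked members are described singly.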

Additional observations from a re-analysis of the deposited data

How the results depend on the processing

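No paired analysis was possible because the samples formed 1 group. The count of 3 members with an IDR summit was 2 and 4 with the strongest regions of replicate 2 or 3 alone, 2 with the 803 strongest IDR regions, and 8 with pooled regions at q below 5% (adding pb, Abd-B, hth, ey and mirr). Counting only summits within 500 bp of an own start, an alternative chosen after seeing the data, it was 0. It was also 3 with gene bodies only, 5 kb upstream or any overlapping base. By nearest start it was 4, without otp and with eyg and ems. The Hox count of 1 was 0 with those 803 and 3 at q below 5%. That of other homeobox genes was 0 with those 803, 4 at q below 5%, 0 with gene bodies only, and 1 to 2 with single replicates.

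The mean share of similar-length genes with a summit, 21.4%, was 21.6 to 21.8% with single replicates, 12.3% with those 803, 34.8% at q below 5%, 14.5% with bodies only, 27.3% with 5 kb upstream, 18.0% by nearest start, 22.1% by any base and 20.8% with 200 genes. It was thus above the share of the members in every setting. The median percent ranked better was 63.0% in each single replicate for all members, 51.5 to 56.5% for Hox and 63.5 to 69.0% for the others. With bodies only these were 55.5, 44.5 and 56.2%, and without length 34.8, 22.1 and 35.9%. With 5 kb upstream all members had 56.0% and the others 58.0%. With 50 genes all members had 58.0%, and with 200 genes they had 57.2% and Hox 53.0%. Members in both replicates numbered 1 with the strongest 803 regions of each and 5 with the strongest 3214. IDR summits in the complexes numbered 5 with 20 kb added on each side, and 4 to 5 with single replicates. The cause of these shifts was not tested.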
